A study of Mus musculus with 6 samples.

Results

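Neutrophil primary granule genes and early granulocyte genes were examined in common myeloid progenitors of the mouse fetal liver. The set was a fixed list of 10 symbols, namely Mpo, Elane, Prtn3, Ctsg, Ms4a3, Serpinb1a, Fcnb, Hp, Ctsc and Srgn, and all 10 were found once each among the 24815 Ensembl gene identifiers that every deposited table lists. RNA sequencing covered 3 libraries of cells that lack an upstream enhancer of Gata2 on both alleles (genotype -77-/-, called mutant C, D and Q) and 3 wild-type libraries (WT, called A, F and L). All were C57BL/6, at E13.5 (embryonic day), and both genotypes passed the same sort. It took cells negative for lymphoid markers (CD3, CD4, CD5, CD8 and B220), for erythroid TER-119, for Gr-1, CD41 and CD48, and for Sca-1, low for Fc receptors, and positive for CD34 and c-Kit. The labels name no driver that limits the deletion to a cell type. They do not say whether libraries came from separate animals, so p-values measure the spread between these libraries only, which may be technical.

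Primary (azurophil) granules are the first granules that a neutrophil precursor makes, at the promyelocyte stage, and their transcripts already appear in granulocyte-monocyte progenitors. Myeloperoxidase and the serine proteases elastase, proteinase 3 and cathepsin G are packed into them on the proteoglycan serglycin, and the proteases become active only when cathepsin C trims their amino termini. Secondary and tertiary granules follow later in maturation, when transcription of the primary granule genes has ceased.

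Depth ran from 14800563 to 30596279 expected counts in the mutant libraries and from 14473913 to 21509720 in wild type. Gata2 was present at 8.92, 16.5 and 17.8 CPM (counts relative to library size, scaled between libraries by TMM factors) in mutants C, D and Q, and at 78.6, 57.4 and 63.9 CPM in wild types A, F and L, every mutant library below every wild-type library, as the labels have it. Of the gate markers, Cd34 ranged over 323 to 752 TPM (transcript levels corrected for gene length) in the mutant and 585 to 654 TPM in wild type, and Kit over 12.5 to 106 and 113 to 136 TPM. Both lowest values were those of mutant C, and mutants D and Q had 106 and 87.4 TPM of Kit. In CPM, which is not corrected for length, mutant C was instead the highest library for Cd34. The Cd34 values were 1254, 998 and 1024 CPM in mutants C, D and Q, against 685, 862 and 861 CPM in wild types A, F and L. Kit was lowest in mutant C on that scale too, at 102 CPM. The log2 change of Kit was -0.57 (SE 0.39, adjusted p = 0.58 by edgeR), and -0.23 (SE 0.08, adjusted p = 0.37) without mutant C. Transcripts of CD48, a protein the gate selected against, were present at 201 to 251 TPM in the mutant and 169 to 186 TPM in wild type. Those of Itga2b, the gene of CD41, which the gate also selected against, were at 1.47 to 4.39 TPM in the mutant and 14.6 to 23.5 TPM in wild type. Itga2b was the 1 gate marker that passed the threshold, and it fell (log2 change -1.98, SE 0.18, adjusted p = 0.032 by edgeR, and 0.0035 without mutant C). The T cell gene Cd3e was at 0 in all 6. Mutant C stood apart from the other libraries. Ribosomal protein genes took 20.69% of its counts, against 7.84% and 8.64% in mutants D and Q and 6.34% to 8.06% in wild type, and its average count came from a gene of 1795 bases, against 2826 to 2998 bases in D and Q and 2951 to 3113 bases in wild type. Fitted changes are therefore given with and without mutant C.

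In wild type Mpo was the most abundant of the 10 transcripts and Fcnb the least. Mpo, the heme enzyme that turns hydrogen peroxide and chloride into hypochlorous acid, stood at 471, 1920 and 1693 TPM in mutants C, D and Q, against 2923, 1776 and 1672 TPM in wild types A, F and L. Among all listed genes this put it between rank 98 and rank 276 in the mutant libraries and between rank 34 and rank 113 in wild type. Mutants D and Q lay inside the wild-type range and mutant C below it. On the log2(TPM + 1) scale the median change of all genes was itself -0.54 with all libraries and -0.12 without mutant C. TPM levels of mutant C are to be read beside this shift. With an offset for gene length in edgeR, the log2 change of Mpo was -0.19 (SE 0.22, adjusted p = 0.68). Mpo made up 21.8%, 58.3% and 55.3% of the summed TPM of the 10 genes in mutants C, D and Q, against 61.8%, 54.3% and 52.2% in wild types A, F and L.

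Prtn3, the gene of proteinase 3, followed with 546, 550.1 and 554 TPM in the mutant libraries and 713, 516 and 562 TPM in wild type. The mutant values all fell within the wild-type range. Srgn, which encodes the serglycin core protein, came next with 601, 329 and 383 TPM in mutants C, D and Q, against 466, 471 and 457 TPM in wild type. The wild-type libraries were close together, while mutant C lay above them and mutants D and Q below. In wild type the ranges of Mpo, Prtn3 and Srgn were apart. In the mutant the range of Prtn3 overlapped those of Mpo and Srgn, so their order over all mutant libraries is not resolved. The overlap came from mutant C alone, with 471 TPM of Mpo, 546 of Prtn3 and 601 of Srgn. In mutants D and Q the order was that of wild type.

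Ctsg, the gene of the chymotrypsin-like protease cathepsin G, had 227, 146 and 141 TPM in the mutant and 208, 170.2 and 162 TPM in wild type. Serpinb1a, a cytosolic inhibitor of elastase, proteinase 3 and cathepsin G, had 192, 176 and 171 TPM in the mutant and 163, 176 and 169.5 TPM in wild type. Mutant C lay above the wild-type range, mutant Q within it and mutant D level with its top. The ranges of Ctsg and Serpinb1a overlapped within each genotype, so their order is not resolved. Ctsc, the gene of the activating protease cathepsin C, stood at 51.3, 116 and 72.9 TPM in mutants C, D and Q, against 153, 104 and 119.7 TPM in wild type, with mutant D within the wild-type range and mutants C and Q below it.

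The lower end of the order held Hp, Elane, Ms4a3 and Fcnb. Hp, the gene of the hemoglobin-binding protein haptoglobin, had 28.1, 30.2 and 19.7 TPM in the mutant and 52.0, 34.8 and 35.0 TPM in wild type, without overlap of the groups. Elane, the gene of neutrophil elastase, had 11.7, 12.2 and 10.7 TPM in the mutant and 29.1, 13.8 and 13.1 TPM in wild type, again without overlap, although wild types F and L lay just above the mutant libraries. Ms4a3, a membrane protein gene of granulocyte-monocyte progenitors, had 28.0, 13.8 and 15 TPM in the mutant and 23.0, 11.2 and 12.7 TPM in wild type, with the groups interleaved. The ranges of Elane and Ms4a3 overlapped each other in wild type and were apart in the mutant. Within each library Ms4a3 was above Elane in the mutant and below it in wild type, by least in L (12.7 against 13.1 TPM). This order was not tested. On the TPM scale the groups did not overlap in 25.6% of the 11328 genes with a mean of at least 1 TPM, and in 23.6% the mutant was the lower, so that 2 of the 9 members above that level is a share close to the background.

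Fcnb, which encodes the lectin ficolin B, was at the edge of detection, with 4, 0 and 11 expected counts in mutants C, D and Q and 9, 2 and 4 in wild types A, F and L. It did not pass the filter on low counts. In the fits without that filter its log2 change was -0.03 (SE 0.94, adjusted p = 0.99) by edgeR and 0.06 (SE 1.2, adjusted p = 0.99) by DESeq2, and -0.46 (SE 1.46, adjusted p = 0.99) by DESeq2 without mutant C, so a difference was not detectable at this depth. Its TPM values, 0.250, 0 and 0.590 in the mutant and 0.840, 0.730 and 1.01 in wild type, do not overlap, but they rest on these few counts and on a gene length that the deposited files set anywhere from 364 to 1170 bases between libraries.

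**Figure D1:**
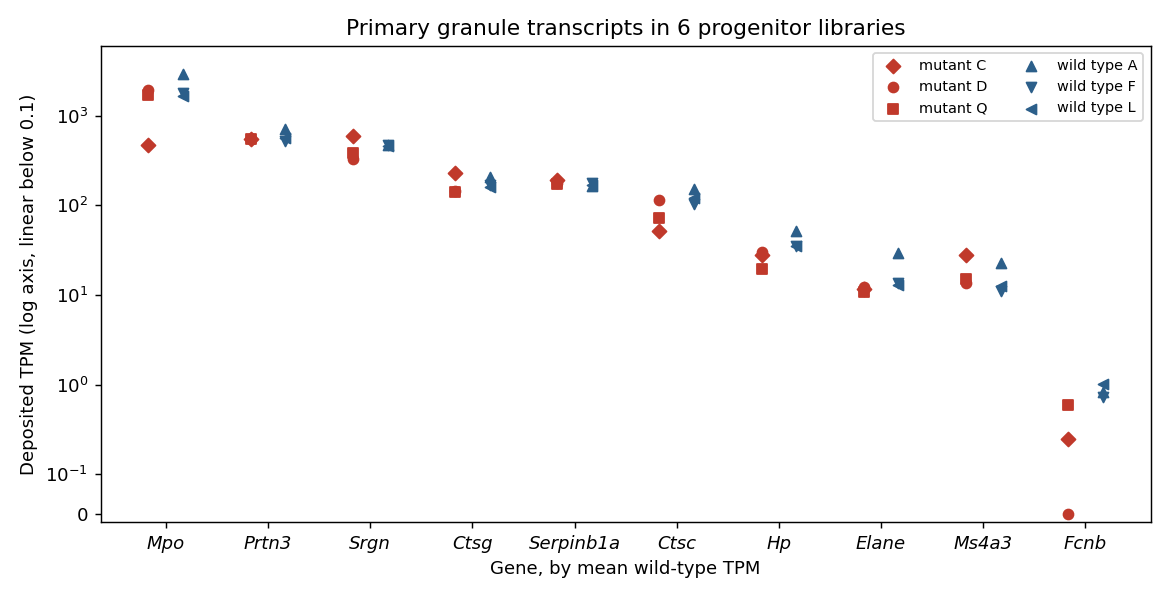
Deposited TPM of the 10 genes on a log axis (linear below 0.1), with mutant libraries in red on the left of each gene and wild-type libraries in blue on the right, 1 symbol per library. Mpo lies lowest in mutant C (471 TPM), the mutant and wild-type libraries of Prtn3 and Serpinb1a nearly coincide, and Fcnb is at or below 1.01 TPM throughout.

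Prtn3 and Elane are neighbours on chromosome 10. In the GENCODE M21 annotation of mm10 Prtn3 spans 79874476 to 79883174 and Elane 79886247 to 79888215, both on the plus strand and 3072 bases apart. Their transcripts are of similar length (a mean of 896 and 920 bases), yet Prtn3 was 46.9, 45.1 and 51.7 times as abundant as Elane in TPM in mutants C, D and Q, and 24.5, 37.4 and 43.0 times in wild types A, F and L. The groups did not overlap in this ratio, which was chosen after the values were seen and was not tested. The annotated start of Prtn3 overlaps the span of Plppr3 on the opposite strand, and Ctsc overlaps Gm26522, also on the opposite strand. Whether counting used strand is not given in the sources used here, so reads in these overlaps cannot be assigned. Mpo lies on chromosome 11 (87793581 to 87804413, plus strand) and Ctsg on chromosome 14 (56099881 to 56102574, minus strand), near the granzyme and chymase genes.

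The promoter windows of the peroxidase gene and of the 3 serine protease genes are shown because these genes carry the highest and nearly the lowest levels of the set. Each window runs 5′ to 3′ from 250 bases before to 50 after a RefSeq transcript start on GRCm38.p6, the build called mm10. Windows were available for 8 of the 10 genes. The starts used for Mpo, Prtn3 and Elane lie inside the gene spans given above, so they differ from the annotated gene starts. The whole Prtn3 window lies inside the span of Prtn3. Capitals mark matches, on either strand, to the letters searched for PU.1, MYB, RUNX, C/EBP, GATA and the TATA box, and no matches overlap in these windows.
Mpo, chr11:87793534-87793833, plus strand: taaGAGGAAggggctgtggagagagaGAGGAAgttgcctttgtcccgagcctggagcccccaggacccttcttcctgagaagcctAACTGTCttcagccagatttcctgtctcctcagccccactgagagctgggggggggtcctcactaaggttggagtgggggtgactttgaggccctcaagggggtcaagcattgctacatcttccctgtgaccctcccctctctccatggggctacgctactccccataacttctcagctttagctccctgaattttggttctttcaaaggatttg
Prtn3, chr10:79879417-79879716, plus strand: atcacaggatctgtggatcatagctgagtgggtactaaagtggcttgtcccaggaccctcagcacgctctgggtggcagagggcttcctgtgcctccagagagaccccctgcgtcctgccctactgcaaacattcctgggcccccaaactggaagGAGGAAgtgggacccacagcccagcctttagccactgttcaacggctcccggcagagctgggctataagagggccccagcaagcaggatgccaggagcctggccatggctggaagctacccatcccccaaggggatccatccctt
Elane, chr10:79886062-79886361, plus strand: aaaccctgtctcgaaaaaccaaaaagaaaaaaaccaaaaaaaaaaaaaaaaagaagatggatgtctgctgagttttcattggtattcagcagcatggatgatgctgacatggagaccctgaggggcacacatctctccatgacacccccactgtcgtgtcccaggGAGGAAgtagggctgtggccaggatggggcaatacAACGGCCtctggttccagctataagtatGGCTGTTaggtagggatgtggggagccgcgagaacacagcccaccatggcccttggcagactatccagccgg
Ctsg, chr14:56102525-56102824, minus strand: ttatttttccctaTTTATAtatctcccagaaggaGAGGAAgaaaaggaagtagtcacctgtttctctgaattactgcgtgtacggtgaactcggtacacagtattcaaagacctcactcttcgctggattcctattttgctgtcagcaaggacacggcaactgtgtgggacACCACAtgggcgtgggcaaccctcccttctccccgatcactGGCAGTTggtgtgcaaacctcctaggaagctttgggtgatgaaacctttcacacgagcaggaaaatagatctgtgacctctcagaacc

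PU.1 letters, searched as GAGGAA, stood in all 4 windows, with the first base 247 and 224 bases before the start in Mpo, 95 in Prtn3, 85 in Elane and 216 in Ctsg. They were present in 6 of 9 windows of the gene set (Srgn has more than 1 start) and in 28.1% of 32544 promoter windows of the same length. MYB letters, searched as AACNGNC, stood 165 bases before the start in Mpo, 50 and 22 in Elane and 38 in Ctsg, with none in Prtn3, and in 32.8% of all windows. Ctsg also held RUNX letters (TGTGGT) 79 bases before its start (16.7% of all windows) and TATA box letters (TATAAA) 237 bases before it (13.6%). C/EBP letters (TTGCNNAA) were in 2 of the 9 windows, Fcnb and Ms4a3, and in 10.8% of all. GATA letters (AGATAA) were in 0 of 9 and in 11.2% of all, which says only that this string is not in these windows.

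No member passed the test between genotypes. With all 6 libraries, 0 of the 9 members tested passed an adjusted p of 0.05 in edgeR's quasi-likelihood test with Benjamini-Hochberg adjustment over all genes, where 0.155% of 12222 tested genes did, and 0 members were under 0.05 before adjustment, where 4.80% of genes were. On the same libraries limma-voom called 0 members (0 before adjustment) and 0.262% of genes, and DESeq2, run without the filter, called 0 (1 before adjustment, Ms4a3) and 0.673% of genes. Without mutant C, edgeR called 0 of 9 members and 0.840% of 12614 genes, with 1 member, Hp, at an unadjusted p under 0.05, where 10.4% of genes were. The median log2 change of the tested members was 0.74 with all libraries, beside -0.02 over all tested genes, and -0.19 without mutant C, beside -0.01.

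The direction of the fitted changes differed with and without mutant C. In CPM, which is not corrected for length, mutant C was the highest of the 6 libraries for 8 of the 9 tested members, the exception being Mpo, and for 41.1% of all tested genes. With all libraries 7 members had a fitted change above 0 and 2 below. Without mutant C it was 3 above and 6 below.

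Mpo had 1691, 2354 and 2314 CPM in mutants C, D and Q, against 3131, 2174 and 2078 CPM in wild types A, F and L. Mutants D and Q lay between wild types F and A. The log2 change was -0.22 with a standard error of 0.28 (adjusted p = 0.67 by edgeR), and -0.09 ± 0.18 (SE) without mutant C (adjusted p = 0.88). The 95% interval without mutant C ran from 0.705-fold to 1.26-fold of wild type, and with all libraries from 0.539-fold to 1.38-fold.

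Among the serine proteases, Prtn3 had 776, 252 and 271 CPM in mutants C, D and Q, against 286, 232 and 258 CPM in wild types A, F and L. Mutant C was far above the rest, and D and Q were inside the wild-type range. Its log2 change was 0.74 (SE 0.46, adjusted p = 0.58 by edgeR) with all libraries and 0.00 (SE 0.10, adjusted p = 0.99) without mutant C, where the 95% interval was 0.846-fold to 1.19-fold.

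Ctsg had 342, 75.1 and 81.0 CPM in mutants C, D and Q, against 93.9, 86.8 and 84.2 CPM in wild types A, F and L. Mutants D and Q were just below every wild-type library, and mutant C far above. The log2 change was 0.91 (SE 0.60) with all libraries and -0.19 (SE 0.08) without mutant C, with adjusted p of 0.58 and 0.51 by edgeR. Without mutant C the 95% interval was 0.767-fold to 1.01-fold.

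Elane had 16.1, 5.74 and 5.64 CPM in mutants C, D and Q, against 12.0, 6.43 and 6.22 CPM in wild types A, F and L. Without mutant C the groups did not overlap, but mutants D and Q were closer to wild types F and L than wild type A was. The log2 change was 0.12 (SE 0.50) with all libraries and -0.56 (SE 0.31) without mutant C (adjusted p = 0.89 and 0.57 by edgeR). With wild type A also left out it was -0.15. At 102 to 302 counts per library Elane had a wider interval than its neighbour, 0.414-fold to 1.12-fold without mutant C.

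Of the genes whose products act on the proteases, Ctsc had 156, 117 and 94.5 CPM in the mutant and 138, 113 and 124 CPM in wild type, with mutant C above and mutant Q below the wild-type range. Its log2 change was -0.03 (SE 0.22, adjusted p = 0.95 by edgeR) and, without mutant C, -0.25 (SE 0.13, adjusted p = 0.54). Serpinb1a had 563, 176 and 191 CPM in mutants C, D and Q, against 143, 175 and 172 CPM in wild types A, F and L. It was the only tested member whose groups did not overlap in CPM with all 6 libraries, by a margin of under 1 CPM between mutant D and wild type F, and 22.0% of all tested genes had no overlap. Its log2 change was 0.92 (SE 0.47, adjusted p = 0.58 by edgeR), and 0.16 (SE 0.10, adjusted p = 0.62) without mutant C. In TPM, Serpinb1a stood at 0.244, 0.248 and 0.242 of the sum of Elane, Prtn3 and Ctsg in mutants C, D and Q, and at 0.172, 0.252 and 0.230 of it in wild types A, F and L. This ratio of inhibitor to protease transcripts varied less over the mutant libraries than over wild type, where A and L lay below and F above them. Wild type A was the furthest from the mutant libraries, and the difference in spread was not tested.

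Srgn had 797, 151 and 197 CPM in mutants C, D and Q, against 187, 213 and 212 CPM in wild types A, F and L. Its log2 change was 0.90 (SE 0.63) with all libraries and -0.23 (SE 0.12) without mutant C (adjusted p = 0.58 and 0.55 by edgeR). Mutant D was below every wild-type library, while mutant Q lay between wild types A and L. Serglycin is also a granule component of mast cells and platelets, so it is not restricted to the neutrophil line. The mast cell and basophil markers summed to 29.3, 16.3 and 17.3 CPM in mutants C, D and Q, against 178, 146 and 149 CPM in wild types A, F and L, over 11 markers of which Gzmb, Cma1, Tpsb2 and Tpsab1 were at 0 in every library. The 10 megakaryocyte markers summed to 50, 76.9 and 75.9 CPM, against 134, 124 and 132 CPM, with 0 of them at 0 throughout, although the sort took CD41-negative cells, which should remove that lineage. Their part in the Srgn values was not tested.

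Ms4a3 had 41.0, 6.84 and 8.34 CPM in mutants C, D and Q, against 10.1, 5.49 and 6.45 CPM in wild types A, F and L. Mutant C was far above the rest, and mutants D and Q lay within the wild-type range. The log2 change was 1.31 (SE 0.73, adjusted p = 0.58 by edgeR), the highest of the set, and 0.02 (SE 0.27, adjusted p = 0.98) without mutant C.

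Hp had 57.3, 21.0 and 15.3 CPM in mutants C, D and Q, against 31.8, 24.0 and 24.7 CPM in wild types A, F and L. Mutants D and Q lay below every wild-type library. The log2 change was 0.21 (SE 0.49, adjusted p = 0.82 by edgeR) with all libraries, and -0.58 (SE 0.18, adjusted p = 0.30) without mutant C, the largest change of the set in that fit. Its 95% interval, 0.502-fold to 0.888-fold, did not include 1, but the change did not hold after adjustment over all genes. Haptoglobin is also a liver secretory protein. The 16 hepatoblast markers, none of them at 0 throughout, summed to 259, 128 and 679.6 CPM in mutants C, D and Q, against 141, 99.7 and 75.6 CPM in wild types A, F and L. Their part in the Hp values was not tested. In bulk libraries fewer cells of a type and less RNA per cell cannot be told apart.

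Monocyte markers were present in both genotypes, while mature neutrophil markers other than Cxcr2 were close to 0. The 8 monocyte markers summed to 866, 697 and 545 CPM in mutants C, D and Q, against 665, 646 and 609 CPM in wild types A, F and L. The 11 mature neutrophil markers summed to 67.6, 39.3 and 42.2 CPM, against 45.1, 44.4 and 42.5 CPM. Of this, Cxcr2 alone had 61.5, 37.4 and 40.2 CPM, against 39.3, 40.7 and 40.8 CPM. No other marker of that list was above 2.09 CPM (Mmp8 in mutant C), and Retnlg was at 0 throughout. The part of these markers in the member values was not tested.

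In CPM, 4 of the 9 tested members had groups that did not overlap once mutant C was left out. Elane, Ctsg and Hp were lower in mutants D and Q and Serpinb1a was higher, against 28.9% of all tested genes without overlap.

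**Figure D2:**
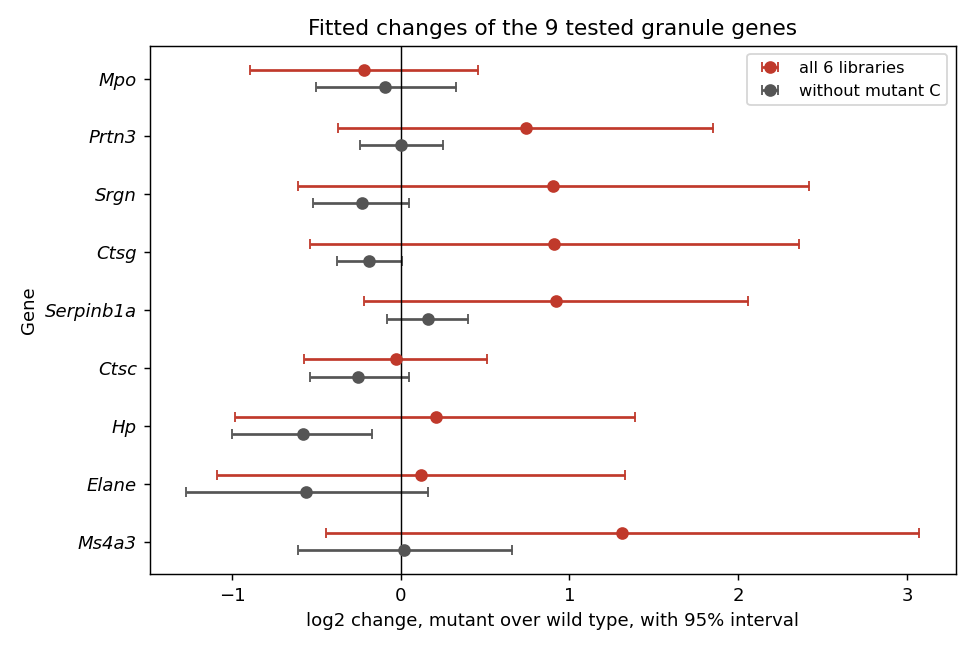
Log2 change, mutant over wild type, of the 9 tested genes with its 95% interval from edgeR's quasi-likelihood fit, with all 6 libraries in red and without mutant C in grey. The red points reach 1.31 for Ms4a3, and with mutant C left out the points lie between -0.58 for Hp and 0.16 for Serpinb1a.

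The ratio of mutant C to the other mutant libraries varied with gene length. Against the mean of mutants D and Q on the log2 CPM scale, genes under 1000 bases had a median ratio of 3.26-fold in mutant C (1086 genes), those from 1000 to 1500 bases 2.05-fold, those from 1500 to 2000 bases 1.49-fold, those from 2000 to 3000 bases 1.04-fold and those of 5000 bases or more 0.423-fold. Ms4a3, Srgn, Prtn3 and Elane, all under 1000 bases long, were 5.37-fold, 4.61-fold, 2.97-fold and 2.79-fold higher in mutant C, and Ctsg, at 1002 bases, 4.38-fold. Hp (1343 bases) was 3.18-fold higher, Ctsc (2024 bases) 1.48-fold higher and Mpo (2337 bases) at 0.725-fold. Serpinb1a, at 1917 bases, was 3.07-fold higher. Against all genes of their own length class, 6 of the 9 members lay above the upper quartile (Ms4a3, Srgn, Ctsg, Hp, Serpinb1a and Ctsc), Prtn3 and Elane lay between the quartiles, and Mpo lay below the lower one. The upper quartiles were 4.22-fold under 1000 bases, 2.60-fold from 1000 to 1500, 1.90-fold from 1500 to 2000 and 1.35-fold from 2000 to 3000, where the lower one was 0.769-fold. Ctsc lay just past the edge at 2000 bases. Its 1.48-fold is between the quartiles of the class below (1.11-fold and 1.90-fold), so its place depends on that edge.

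With an offset per library for gene length, the median log2 change of the 9 members was 0.05, the same as over all genes, and edgeR called 0 of the 9 and 0.475% of all genes. The largest changes in that fit were 0.74 for Serpinb1a (adjusted p = 0.48), -0.53 for Elane (adjusted p = 0.48) and 0.50 for Ms4a3 (adjusted p = 0.57). On the log2(TPM + 1) scale the median of all genes was itself at -0.54, and relative to it the members ran from -0.30 for Mpo to 0.80 for Ms4a3, with limma calling 0. Fold changes on this scale understate those of low genes.

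**Figure D3:**
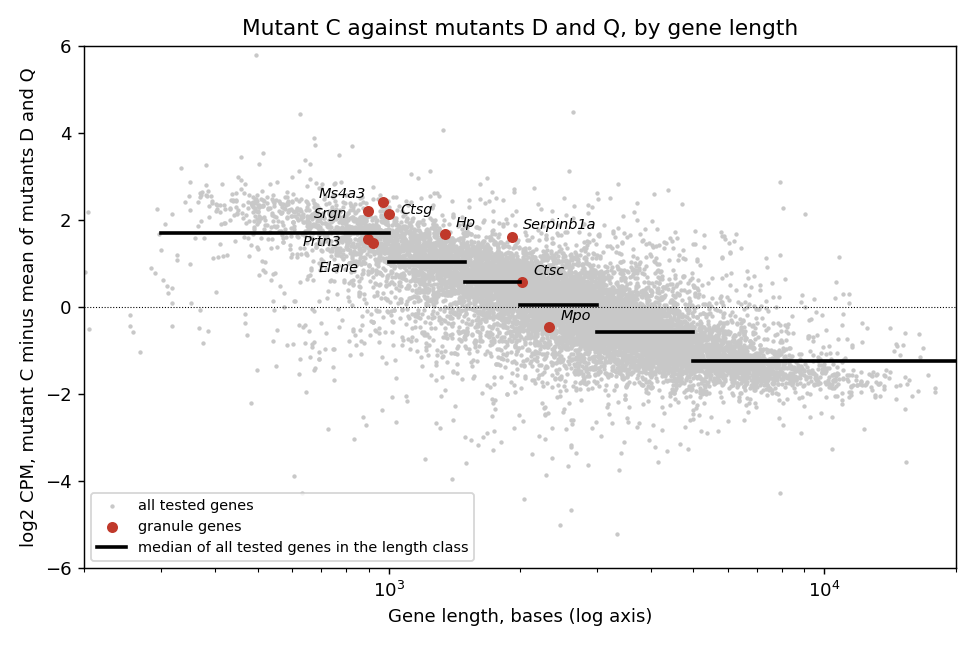
Log2 CPM of mutant C minus the mean of mutants D and Q against gene length on a log axis, with all tested genes in grey, their medians per length class as black bars and the 9 tested granule genes in red. Members under about 1000 bases lie between 2.79-fold and 5.37-fold higher in mutant C, and Mpo at 2337 bases is at 0.725-fold.

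Transcripts of the granule classes that follow the primary one were far lower in both genotypes. The 16 secondary granule genes summed to 11.7, 23.0 and 15.2 TPM in mutants C, D and Q, against 26.3, 21.7 and 16.3 TPM in wild types A, F and L, and the 15 tertiary granule and late neutrophil genes to 25.4, 55.4 and 44.8 TPM, against 70.4, 62.3 and 52.9 TPM. The 10 primary granule and early granulocyte genes summed to 2157, 3293 and 3061 TPM in the mutant and 4731, 3274 and 3203 TPM in wild type. For the tertiary list in TPM only mutant D overlapped the wild-type range, while mutants C and Q lay below it. In CPM, which is not corrected for length, mutant C was instead the highest library for each sum. It had 4439 CPM for the primary list, 29.6 for the secondary and 107 for the tertiary, against at most 4034, 28.4 and 98.9 in any other.

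Within the secondary list, 6 of 16 genes passed the filter, and edgeR called 0 with all libraries (1 at an unadjusted p under 0.05) and 0 without mutant C (1). Its most abundant members were the heparan sulfate-degrading enzyme gene Hpse (a mean of 6.89 TPM), the peptidoglycan recognition protein gene Pglyrp1 (5.58 TPM) and the adhesion protein gene Ceacam1 (3.53 TPM), which are not restricted to granules. Genes that define the class were close to 0, as in this pair chosen after the values were seen. Ngp, a neutrophilic granule protein gene, and Camp, the cathelicidin gene, were at 0 in all 3 mutant libraries and in wild type L, with 0.914 and 0.477 CPM in wild type A and 0.126 and 0.0631 CPM in wild type F. Of the tertiary and late list 6 of 15 were tested (7 without mutant C) with 0 called in either fit and 0 at an unadjusted p under 0.05, and its most abundant genes were the chemokine receptor gene Cxcr2 (22.9 TPM), the integrin gene Itgam (15.3 TPM) and the activating receptor gene Trem1 (6.61 TPM).

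**Figure D4:**
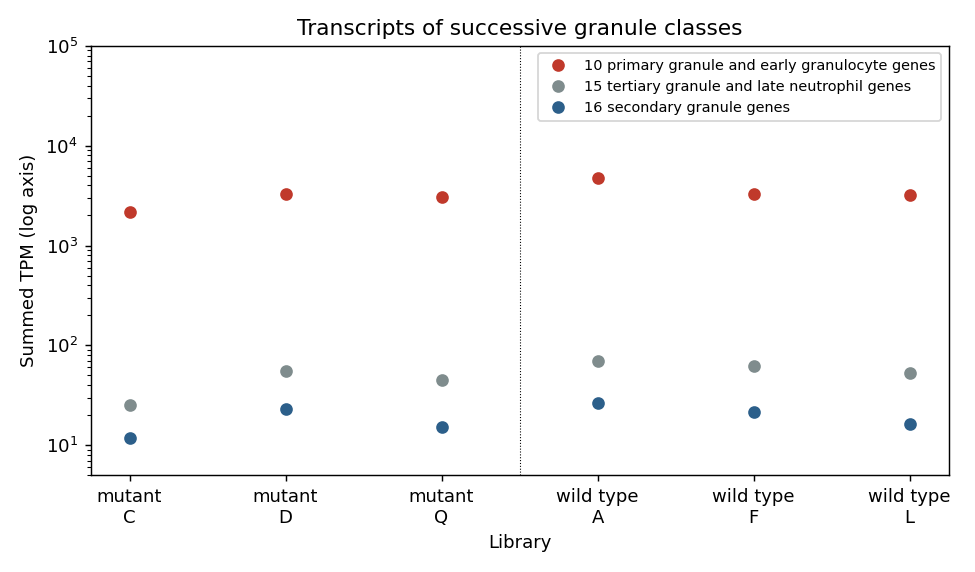
Summed TPM, on a log axis, of the 10 primary granule and early granulocyte genes, the 15 tertiary granule and late neutrophil genes and the 16 secondary granule genes in each library, mutant libraries on the left and wild type on the right. The primary sum lies between 2157 and 4731 TPM in every library, and the secondary sum between 11.7 and 26.3 TPM. Mutant C has the lowest value of each sum in TPM, as shown, and the highest in CPM.

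Over the 13 partner lists edgeR called 0 genes with all libraries and 5 without mutant C, where 0.155% and 0.840% of all tested genes were called. Under 0.05 before adjustment by edgeR were 4.80% of all tested genes with all libraries and 10.4% without mutant C. The unadjusted counts of each list are to be read beside these shares. With all libraries DESeq2 called Gata2, Ms4a2 and Serpina1b, the last an inhibitor gene of the liver, and limma-voom called 0. The edgeR calls without mutant C also include Gata2. It is the gene whose enhancer the mutant lacks, so its calls are no separate result on granule genes. Of 31 further primary granule and lysosomal genes 29 were tested, and edgeR called 0 with all libraries (0 at an unadjusted p under 0.05) and 0 without mutant C (1), with median log2 changes of 0.23 and 0.00. Its most abundant members were Psap, the saposin precursor gene, with log2 changes of -0.12 and, without mutant C, 0.00, and Lyz2, the lysozyme gene of myeloid cells, with 0.60 and -0.08. Lyz2 had 359.9, 131 and 127 CPM in mutants C, D and Q, against 124, 142 and 140.1 CPM in wild types A, F and L.

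Genes of the enzymes that build the glycosaminoglycan side chains of serglycin formed a list of 19. Of these 16 were tested, 13 of them with a fitted change below 0 with all libraries and 14 without mutant C, with medians of -0.34 and -0.21 beside -0.02 and -0.01 over all genes. At an unadjusted p under 0.05 by edgeR were 4 of the 16 with all libraries and 6 without mutant C, beside 4.80% and 10.4% of all genes. EdgeR called 0 with all libraries and 1 without mutant C, where 0.761% of all genes were called lower. That gene, Csgalnact2, which encodes an enzyme that starts chondroitin sulfate chains, fell without mutant C (log2 change -0.56, SE 0.08, adjusted p = 0.031), and with all libraries it had -0.66 (SE 0.17, adjusted p = 0.55). It had 51.0, 63.5 and 68.2 CPM in mutants C, D and Q, against 101, 91.2 and 97.5 CPM in wild types A, F and L, with every mutant library below every wild-type library. Chst12, a chondroitin sulfotransferase gene and the next most abundant, had log2 changes of -0.18 and 0.01. These enzymes also serve other proteoglycans.

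All 24 genes of granule protein folding, sorting and secretion were tested, and edgeR called 0 in either fit (1 at an unadjusted p under 0.05 in each), with medians of 0.02 and -0.00. Calr and Hspa5, endoplasmic reticulum chaperones of which calreticulin binds newly made myeloperoxidase, had log2 changes of -0.13 and 0.14, and -0.12 and 0.03 without mutant C. The 8 NADPH oxidase genes, whose product supplies the hydrogen peroxide that myeloperoxidase uses, gave 0 calls in either fit (0 and 1 at an unadjusted p under 0.05), with medians of 0.24 and 0.07. Their most abundant members Rac1 and Rac2, small GTPase genes, had log2 changes of -0.01 and 0.28, and 0.03 and 0.02 without mutant C.

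Of 17 inhibitors of granule proteases, a list that includes Serpinb1a, 12 were tested and 11 had a fitted change above 0 with all libraries, against 7 without mutant C. EdgeR called 0 in either fit, and the medians were 0.85 and 0.17. Of the 12 genes, 2 and 4 were at an unadjusted p under 0.05, beside 4.80% and 10.4% of all genes. The cysteine protease inhibitor gene Cst3 had 878, 186 and 188 CPM in mutants C, D and Q, against 137, 146 and 169.7 CPM in wild types A, F and L (log2 change 1.47, adjusted p = 0.58 by edgeR, and 0.30, adjusted p = 0.34, without mutant C). The close paralogs of Serpinb1a, between which reads could be split and which were looked up after the values were seen, were at most 0.110 CPM (Serpinb1b) and 0.237 CPM (Serpinb1c) in any library.

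Among 16 transcription regulators of the primary granule programme, 14 were tested. EdgeR called 0 with all libraries, and 2 fell without mutant C, Gata2 (adjusted p = 0.0019, against 0.068 with all libraries) and Myb. Gata2 is in this list although it is the gene whose enhancer the mutant lacks. Before adjustment, and with Gata2 included, 2 of the 14 were under 0.05 with all libraries and 5 without mutant C. Over all genes these shares were 4.80% and 10.4%. Myb, an activator of progenitor and primary granule genes, had 159, 257 and 259.8 CPM in mutants C, D and Q, against 399, 371 and 378 CPM in wild types A, F and L. Every mutant library was below every wild-type library, and the log2 change was -0.57 (SE 0.08, adjusted p = 0.020) without mutant C and -0.76 (SE 0.23, adjusted p = 0.58) with it. Spi1, the gene of PU.1, had log2 changes of 0.33 (SE 0.17) and 0.20 (SE 0.07), and Cbfb, the partner of RUNX proteins, of -0.02 and 0.05, none past the threshold by edgeR in either fit.

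Of 18 early granulocyte-monocyte progenitor genes, all tested, edgeR called 0 with all libraries (1 at an unadjusted p under 0.05) and 1 without mutant C (6). Of all genes, 4.80% and 10.4% were under that unadjusted p in the same fits. The inhibitory lectin receptor gene Clec12a rose without mutant C (log2 change 0.70, SE 0.10, adjusted p = 0.032), in a fit that called 0.0793% of all genes higher, and with all libraries it had 1.49 (SE 0.49, adjusted p = 0.58). It had 246, 77.5 and 76.8 CPM in mutants C, D and Q, against 40.9, 52.5 and 48.8 CPM in wild types A, F and L, with no overlap. Plac8, the most abundant of the list, had log2 changes of 1.44 and 0.30, and Cd34 of 0.44 and 0.33.

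Genes beside the members on their chromosomes gave 0 calls near Elane and Prtn3 (9 of 12 tested, 0 at an unadjusted p under 0.05 in either fit), where Ptbp1 and Polr2e were the most abundant with log2 changes of -0.12 and 0.72, and 0.02 and 0.08 without mutant C. Chosen after their values were seen, the complement factor gene Cfd near Elane reached at most 0.0620 CPM, and the peroxidase genes Epx and Lpo beside Mpo at most 0.0398 and 0.716 CPM. Of the 6 genes beside Mpo 4 were tested, with 0 called in either fit (0 before adjustment), and Supt4a and Tspo were the most abundant. Of 14 granzyme and chymase genes in the Ctsg cluster, 11 were at 0 in every library and Mcpt8 alone was tested, with 5.07, 1.15 and 1.33 CPM in mutants C, D and Q, against 1.27, 1.01 and 1.18 CPM in wild types A, F and L. The test called 0 of 1 in either fit (0 before adjustment).

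Of 11 relatives of Ms4a3, 6 were tested, and edgeR called 0 with all libraries (1 at an unadjusted p under 0.05) and 1 without mutant C (1). Ms4a2, the beta chain of the high-affinity IgE receptor of mast cells and basophils, fell without mutant C (log2 change -5.74, SE 0.74, adjusted p = 0.016), with 0.441, 0.0478 and 0.124 CPM in mutants C, D and Q, against 8.75, 3.28 and 3.43 CPM in wild types A, F and L. Ms4a6c and Ms4a6b had log2 changes of 0.58 and 0.72, and -0.08 and 0.10 without mutant C. With all libraries Ms4a2 had -5.01 (SE 0.77, adjusted p = 0.11). The difference between Ms4a2 and Ms4a3 was not tested.

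Patterns over the 6 libraries were compared by the root mean square difference of log2 CPM, each gene centred on its own mean, over 10442 named genes with a mean of at least 50 counts. The genes nearest to Mpo were Anks3, Recql4 and Gmip, each at 0.06, and the nearest member was Ctsc at 0.38, only in place 5348. Those nearest to Prtn3 were Cenpv (0.06), Manf and Isca2 (0.07 each), and the nearest member was Serpinb1a at 0.19, in place 609. Cisd3 (0.09), Polr2l (0.10) and Med29 (0.11) were nearest to Ctsg, and Srgn was the nearest member at 0.14, in place 15. 2500002B13Rik (0.14), Dleu2 and Metap1d (0.20 each) were nearest to Elane, with Hp the nearest member at 0.23, in place 7. Mpo was 0.67 away from Elane, 0.79 from Prtn3 and 0.95 from Ctsg, further than these 3 were from each other (0.20 to 0.42). These distances include mutant C and are a description over 6 libraries with no test. CPM is not corrected for length, and Mpo (2337 bases) is longer than Elane, Prtn3 and Ctsg (896 to 1002 bases). The ratio of mutant C to mutants D and Q was 0.725-fold for Mpo and 2.79-fold to 4.38-fold for these 3. The part of gene length in the distances was not tested.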

How the data were processed

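Total RNA of the 6 sorted progenitor libraries was sequenced, and each library has a table per gene. Per the submitters' processing notes CASAVA 1.8.2, Bowtie 1.1.1, RSEM 1.2.18 and mm10 were used. Neither the annotation release nor the strandedness is given in the sources used here. The deposited expected counts are the authors' RSEM estimates, not normalized, and the deposited TPM are the authors' values corrected for gene length (the deposited effective length equals the length in every row). Deposited FPKM were not used.

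Expected counts were rounded and tested in R 4.3.3 with edgeR 4.0.16 (TMM factors, filterByExpr with a minimum count of 10, quasi-likelihood F test, Benjamini-Hochberg adjustment over all genes, threshold 0.05), mutant over wild type, without covariates. Intervals are 95% and come from that fit. Alternatives were other size factors, no filter, DESeq2 1.42.0, limma-voom and limma 3.58.1 on log2(TPM + 1) or log2(TPM + 0.1) for genes with a mean of at least 1 TPM, a loess offset for gene length, and leaving out each library. The fits were tested on simulated data. Genes were named as the members, Gata2, the most abundant of each partner list (2, or 3 for later granule and regulator lists), every partner past the threshold with all libraries or without mutant C, and the 3 genes nearest in pattern to Mpo, Elane, Prtn3 and Ctsg. The members and lists were chosen with earlier results of these data known. Promoter sequences are from RefSeq on GRCm38.p6. Depth was 14473913 to 30596279 expected counts per library.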

Additional observations from a re-analysis of the deposited data

How the results depend on the processing

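No paired analysis was possible because the library letters differ between the genotypes. None of the 162 values of the 9 tested members under 18 alternatives passed the threshold (lowest adjusted p = 0.15), and 45 changed sign. Leaving out each library in turn, 0 to 106 genes of all were called (19 with all libraries) and 0 to 5 partner genes (0 with all libraries), the highest without mutant C, and the member median ran from -0.19 to 1.02. Log2 changes then ran from -0.56 to 0.51 for Elane, -0.19 to 1.26 for Ctsg, -0.58 to 0.55 for Hp, -0.23 to 1.29 for Srgn and -0.25 to 0.13 for Ctsc. All genes called numbered 36 without a filter, 124 by DESeq2, 32 by limma-voom, 9 on log2(TPM + 0.1) and 58 with the length offset, and partner genes 1 without a filter, 3 by DESeq2 and 2 with the length offset. With mutant C left out, all genes and partner genes called were 243 and 9 by DESeq2, 128 and 6 with the length offset, and 74 and 5 on log2(TPM + 1), where the member median was -0.31 and that of all genes -0.12. With mutant C and wild type A left out, a setting chosen after seeing the data, they were 131 and 6. Sign changes were 0.01 for Ctsc with RLE factors, and -0.11 for Elane and -0.04 for Hp by limma-voom. On log2(TPM + 1) they were Elane -0.56, Prtn3 -0.10, Ctsg -0.10, Hp -0.62 and Srgn -0.13, and on log2(TPM + 0.1) Elane -0.59, Prtn3 -0.10, Ctsg -0.10, Hp -0.64 and Srgn -0.13, where the medians of all genes were -0.54 and -0.62. The length offset gave Elane -0.53 and Hp -0.26. With mutant C left out DESeq2 gave Elane -0.54, Ctsg -0.17, Hp -0.57 and Srgn -0.22. The length offset then gave Elane -0.60, Prtn3 -0.04, Ctsg -0.22, Ms4a3 -0.02, Hp -0.60 and Srgn -0.28, and log2(TPM + 1) Elane -0.57, Prtn3 -0.10, Ctsg -0.31, Ms4a3 -0.04, Hp -0.69 and Srgn -0.39. Without mutant C and wild type A, Mpo was at 0.13, Elane -0.15, Ctsg -0.13, Hp -0.43 and Srgn -0.29. The cause of these changes was not tested. Fcnb, at 0 to 11 counts per library, was tested only without the filter on low counts.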

Other observations

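Wild type A was the highest of the 3 wild-type libraries in CPM for 7 of the 9 tested members (77.8%), and for 4633 of all 12222 tested genes (37.9%). In TPM the 10 genes summed to 4731 in wild type A, 3274 in F and 3203 in L, and their share of all counts was 0.472%, 0.332% and 0.326%.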
